A study of Gallus gallus with 8 samples.

Results

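The simple-epithelium keratins Krt7, Krt8, Krt18 and Krt19 were followed across 8 RNA-seq libraries of primary chicken skin cells. The 4 features were taken from the count files by their deposited names, out of 32 names that begin with Krt and 24902 features in all. The libraries came from 3 skin equivalents, in which primary keratinocytes differentiated in a 3-dimensional culture, from 3 confluent keratinocyte monolayers, from 1 subconfluent keratinocyte culture and from 1 confluent culture of primary fibroblasts. Skin equivalents and monolayers share title codes, which are 20 for replicate 1, 34 for replicate 2 and 56 for replicate 3, and the subconfluent culture also has code 20. Monolayer titles hold d8 and that of skin equivalent 1 holds d7, while replicates 2 and 3 in each replicated group are also marked wo. The labels explain none of these marks. Nor do they state that libraries within a group derive from different birds or cultures, so the spread behind each p-value may be technical. All cells were untreated as far as the labels say.

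Keratins are the intermediate filament proteins of epithelial cells. A filament needs a type I and a type II keratin in equal amounts. Krt8 (type II) and Krt18 (type I) form the basic pair of single-layered, or simple, epithelia in mammals, and Krt7 (type II) and Krt19 (type I) are added in ducts, glands and linings of cavities. In mammals the stratified epidermis is built instead from KRT5 and KRT14 in the basal layer and from other pairs above it, and keratinocytes in culture can express simple keratins. The names used here are those of the files. In the RefSeq gene table of assembly GRCg7b, Krt7, Krt8 and Krt18 are symbols, whereas KRT19 appears there only as a synonym of KRT24. Whether the feature Krt19 is the counterpart of mammalian KRT19 was not tested. In the same table KRT8 and KRT18 are next to each other, and KRT7 lies next to KRT80. KRT24, with the synonym KRT19, lies next to KRT13, of which KRT15 is a synonym.

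Gene counts lay between 27329706 and 28792451 in skin equivalents, between 27940842 and 30533216 in monolayers, at 36728801 in the subconfluent library and at 28767054 in the fibroblast library. Levels are given as CPM, which are counts put on one library size after scaling for library composition (TMM). They are not corrected for transcript length, so they are compared mainly between libraries. Where keratins are ordered within a library, the order can also reflect transcript length. The limit set here for a count of 0, 3 counts, lay at 0.0807 to 0.117 CPM depending on the library, and is called the floor. Fragments that mapped to several places have a row of their own and are in no gene's count, so members of a family of like genes such as keratins are uncertain. Such fragments made up 7.06% to 8.66% in skin equivalents, 4.45% to 4.59% in monolayers, 5.46% in the subconfluent library and 3.26% in fibroblasts, and their part in the results was not tested. Of the marker lists, the basal keratinocyte list (Krt15, Krt5L1, Krt5L2, Krt5L3, Krt14L1 and Krt14L2) summed to between 20851 and 29556 CPM in skin equivalents, between 10169.9 and 13878 CPM in monolayers, to 40500.1 CPM in subconfluent keratinocytes and to 5.33 CPM in fibroblasts. Of these 6 names, 2 were called higher and 2 lower in skin equivalents over monolayers, and of 17 tested names of the differentiated keratinocyte list 13 were higher and 2 lower, where 25.9% of all features tested were called higher and 23.6% lower. The lists of further simple-epithelium genes, periderm, mesothelium, fibroblasts, melanocytes, endothelium and regulators of simple keratins matched 0 deposited names and were not analysed here. Only 143 of the 24902 features have a deposited name, so a list without a match says nothing about the expression of its genes. The Merkel cell list matched only Krt20, at 0.613 to 0.921 CPM in skin equivalents, 2.03 to 4.75 CPM in monolayers, 0.188 CPM in subconfluent keratinocytes and 0 counts in fibroblasts.

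The first comparison asked how the 4 keratins differed between skin equivalents and confluent monolayers. Krt7, Krt18 and Krt19 fell in skin equivalents, to means 442-fold lower for Krt7, 511-fold for Krt19 and 19.9-fold for Krt18, while Krt8 did not pass the test. Thus 3 of 4 members were called lower, at an adjusted p below 0.05 over all features, where 23.6% of the 13230 features tested were called lower. For the same 3 members every skin equivalent lay below every monolayer, which held for 29.0% of the features tested. The median log2 fold change over all features was 0.08. In bulk RNA, fewer cells that express a gene and less RNA per cell cannot be told apart.

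Krt7, the type II keratin of glandular and ductal cells in mammals, had 5.82, 7.11 and 4.22 CPM in skin equivalents 1 to 3, against 1915, 3335 and 2339.8 CPM in monolayers 1 to 3. The groups were far apart, and neither group spread by more than 1.74-fold between its highest and lowest library. The mean was 5.72 ± 1.45 CPM in skin equivalents and 2529.95 ± 729 CPM in monolayers (SD, n = 3 each). The log2 fold change was -8.78 ± 0.43 (standard error, edgeR quasi-likelihood test, adjusted p = 4.13e-05), the 33rd lowest of all features tested.

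Krt19, named as a type I keratin, had 2.22, 5.20 and 0.921 CPM in skin equivalents 1 to 3, against 1116, 1637 and 1505 CPM in monolayers 1 to 3. Skin equivalents differed among themselves more than for Krt7, by 5.65-fold, with 58, 133 and 24 counts, but all stood far below the monolayers. The mean was 2.78 ± 2.19 CPM in skin equivalents and 1419.7 ± 271 CPM in monolayers (SD, n = 3 each). Its log2 fold change of -8.99 ± 0.76 (edgeR, adjusted p = 2.10e-04) ranked 25th from the lowest. Skin equivalent 2 held 133 of the 215 counts of its group, and without it the log2 fold change was -9.81.

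Krt18, the usual type I partner of Krt8, was at low counts throughout. Skin equivalents 1 to 3 had 12, 1 and 2 counts (0.460, 0.0391 and 0.0767 CPM), against 87, 132 and 163 counts (2.93, 3.87 and 4.67 CPM) in monolayers 1 to 3. Skin equivalents 2 and 3 were under the floor of 3 counts, so only skin equivalent 1 held Krt18 above it. Over the pooled libraries, 15 counts in skin equivalents stood against 382 in monolayers, a ratio of 0.0499 with a 95% counting interval of 0.0276 to 0.0833. The fitted log2 fold change was -4.28 ± 0.79 (edgeR, adjusted p = 0.00411). It was -5.94 without skin equivalent 1 (adjusted p = 0.00132), and between -4.55 and -3.80 without any single one of the other libraries, with Krt18 called lower each time.

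Krt8, the type II keratin found in nearly all simple epithelia, lay well above the floor in every skin equivalent. It had 93.8, 86.6 and 73.1 CPM in skin equivalents 1 to 3, against 82.2, 235 and 168 CPM in monolayers 1 to 3. The groups overlapped, because monolayer 1 lay below skin equivalents 1 and 2. The mean was 84.5 ± 10.5 CPM in skin equivalents and 162 ± 76.5 CPM in monolayers (SD, n = 3 each), with a log2 fold change of -0.93 ± 0.36 (edgeR, adjusted p = 0.0674; unadjusted p = 0.0359). Without monolayer 1 the log2 fold change was -1.36 (adjusted p = 0.00338) and Krt8 was called lower, as it was among the libraries with wo in their titles, which leave out replicate 1 of both groups (-1.43, adjusted p = 0.00521). Without monolayer 2 the log2 fold change was -0.57 (adjusted p = 0.210). Scaling by total counts gave -1.22 (adjusted p = 0.0336) and DESeq2 gave -1.04 (adjusted p = 0.0235). Total-count scaling moved the median of all features to -0.18, and relative to the median the fold of Krt8 was -1.01 with TMM and -1.03 with total counts.

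Monolayer 1 was the lowest monolayer for all 4 members, and its title differs from the titles of monolayers 2 and 3 in lacking wo. Skin equivalent 3 was the lowest of its group for Krt7, Krt8 and Krt19 but not for Krt18. With the wo mark as a term in the fit the calls were the same: the log2 fold changes were -8.76 for Krt7, -8.99 for Krt19, -4.57 for Krt18 and -0.83 for Krt8 (edgeR, adjusted p = 0.0962 for Krt8). Among the 4 libraries with the mark, those of Krt7, Krt19 and Krt18 were -9.06, -9.09 and -6.20. Libraries without the mark number 1 in each of the replicated groups, which allows no test. Between them, Krt8 was higher in skin equivalent 1 (93.8 CPM) than in monolayer 1 (82.2 CPM), opposite in direction to the marked libraries. Krt7, Krt18 and Krt19 were lower in skin equivalent 1 there too.

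**Figure D1:**
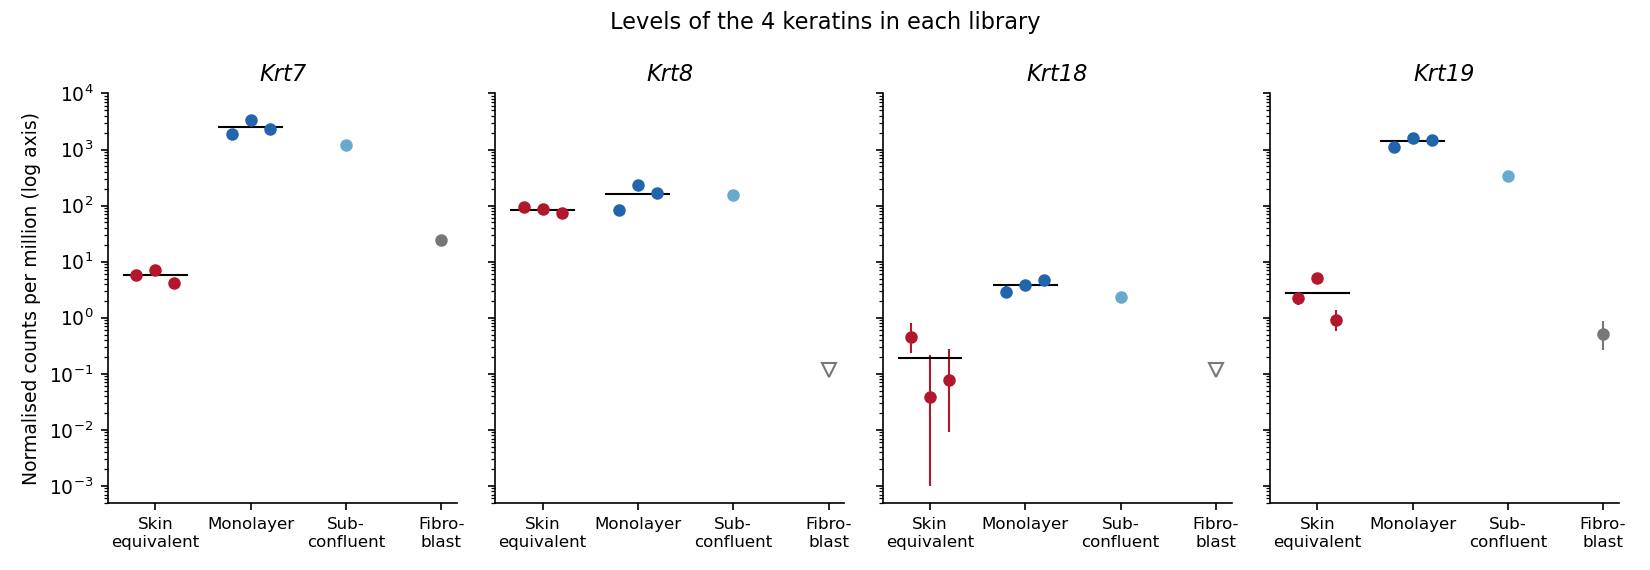
CPM (normalised counts, log axis) of Krt7, Krt8, Krt18 and Krt19 in each of the 8 libraries, with 1 point per library, 95% counting intervals as vertical lines and a horizontal bar for the mean of each group of 3; open triangles stand at the floor of 3 counts for libraries with 0 counts. Libraries with 1 or 2 counts are drawn at their own CPM, so a triangle can stand above them without a higher level. This is so for Krt18 in fibroblasts and skin equivalents 2 and 3. Skin equivalents reach at most 7.11 CPM for Krt7 and 5.20 CPM for Krt19, where no monolayer lies below 1116 CPM, while the Krt8 points of these groups overlap.

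The fold changes of the 4 keratins were then set against each other. The log2 ratio of Krt7 to Krt8 within a library, computed from CPM + 0.5, averaged -3.79 ± 0.242 in skin equivalents and 4.05 ± 0.417 in monolayers (SD, n = 3 each), a difference of -7.85. That of Krt8 to Krt19 averaged 4.91 ± 0.897 in skin equivalents and -3.24 ± 0.483 in monolayers, a difference of 8.15. For the Krt8 and Krt18 pair the log2 ratio averaged 6.98 ± 0.359 in skin equivalents and 5.12 ± 0.586 in monolayers, a difference of 1.86 without overlap. This difference depends on the value added to CPM, since Krt18 is low: it was 3.19 with 0.1 (two-sided exact permutation test, adjusted p = 0.12) and 0.60 with 2 (adjusted p = 0.36). Differences of -5.98 (Krt7 to Krt18) and 6.29 (Krt18 to Krt19) likewise separated every skin equivalent from every monolayer. Both also depend on the value added to CPM. With other added values or single libraries left out they ranged from -6.93 to -4.75 and from 5.23 to 6.96. The 6 pairs of members were tested by a two-sided exact permutation test. In 5 of them the exact p was 0.1 (adjusted p = 0.12). With 3 libraries on each side this permutation test cannot give less than 0.1, so it could not pass 0.05. Only the Krt7 to Krt19 ratio overlapped between groups, at 1.12 ± 0.662 in skin equivalents and 0.81 ± 0.198 in monolayers (difference 0.31, two-sided exact permutation p = 0.6, adjusted p = 0.6). This p does not show that both changed equally.

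The make-up of the counts of the 4 members also differed. Krt8 held 91.7%, 87.5% and 93.3% of them in skin equivalents 1 to 3, against 2.64%, 4.50% and 4.17% in monolayers 1 to 3. Krt7 held 6.09% ± 0.964 in skin equivalents and 61.2% ± 2.89 in monolayers, and Krt19 held 2.87% ± 2.13 in skin equivalents and 34.9% ± 3.13 in monolayers (SD, n = 3 each). In the subconfluent library Krt7 held 70.8%, Krt19 19.9% and Krt8 9.24%. In fibroblasts 97.9% of the counts of the 4 were from Krt7. These shares weigh each keratin by its reads, so a longer transcript counts for more.

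**Figure D2:**
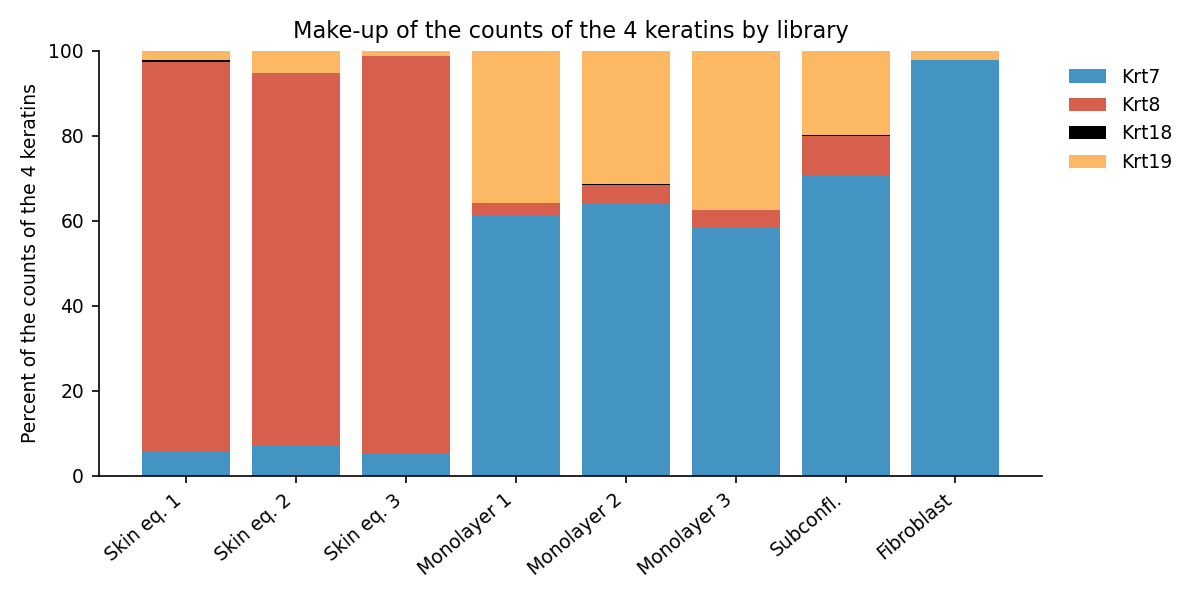
Stacked bars of the percent that Krt7, Krt8, Krt18 and Krt19 took of their summed counts in each library. Krt8 fills 87.5% to 93.3% of the bars of skin equivalents and 2.64% to 4.50% of those of monolayers, while Krt7 and Krt19 fill most of the monolayer and subconfluent bars.

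The members were also set against all keratin names. The 4 held 0.0779% ± 0.0227 of all keratin counts in skin equivalents and 22.8% ± 2.15 in monolayers (SD, n = 3 each), and 3.78% in the subconfluent library. In fibroblasts they held 70.8%, or 631 of only 891 keratin counts. As a share of gene counts they held 0.00863% ± 0.00111 in skin equivalents, 0.461% ± 0.130 in monolayers, 0.170% in subconfluent keratinocytes and 0.00219% in fibroblasts. Within type I keratins, Krt18 and Krt19 took 0.00509% ± 0.00349 of the counts in skin equivalents and 20.2% ± 1.33 in monolayers. Within type II keratins, Krt7 and Krt8 took 0.148% ± 0.0425 in skin equivalents and 24.4% ± 2.76 in monolayers. All names of a type, members included, made up 5.61% ± 1.06 (type I) and 5.85% ± 1.11 (type II) of gene counts in skin equivalents, against 0.783% ± 0.129 and 1.22% ± 0.263 in monolayers.

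The other 28 keratin names moved in both directions in the same comparison. Of 13 tested type I names, 9 rose and 2 fell, with a median log2 fold change of 2.39. Of 11 tested type II names, 4 rose and 5 fell, with a median of 0.41, beside 0.08 over all features, of which 25.9% were called higher and 23.6% lower. The names with the highest CPM in skin equivalents were Krt9L3 and Krt9LC1 for type I and Krt78L3 and Krt78L2 for type II, names formed on KRT9 and KRT78. Krt9LC1 had 5748 ± 2917 CPM in skin equivalents and 66.9 ± 23.6 CPM in monolayers (SD, n = 3 each). Krt9L3 had 38733 ± 7124 CPM in skin equivalents and 6.99 ± 4.07 CPM in monolayers, Krt78L3 24618 ± 3898 and 27.96 ± 18.4 CPM, and Krt78L2 21745 ± 5797 and 30.9 ± 20.2 CPM. In monolayers the highest non-member names were Krt15 and Krt14L1 for type I and Krt5L2 and Krt5L1 for type II. Krt5L2 had 559 ± 614 CPM in skin equivalents and 4257 ± 332 CPM in monolayers, while Krt5L1 had 15373 ± 3274 CPM in skin equivalents and 2032 ± 1038 CPM in monolayers. Krt14L1 had 4332 ± 561 CPM in skin equivalents and 1613 ± 202 CPM in monolayers. Krt15 had 2972 ± 397 CPM in skin equivalents and 2091 ± 284 CPM in monolayers (log2 fold change 0.51 ± 0.24, edgeR, adjusted p = 0.119). Krt80, next to KRT7 in the RefSeq table, fell by 2.86 ± 0.22 on the log2 scale (edgeR, adjusted p = 1.46e-04). The lowest fitted log2 fold changes of the other tested names were those of Krt84L and Krt5L3. They were -7.92 ± 1.39 for Krt84L (edgeR, adjusted p = 0.00728) and -5.83 ± 1.22 for Krt5L3 (edgeR, adjusted p = 0.00681). Both lay below that of Krt18 (-4.28), so large falls were not particular to the members. Of the list of filament partners, only EPPKL1, named after epiplakin, a linker of keratin filaments, had a deposited name, and it rose, with summed CPM of 341 to 647 in skin equivalents and 0.303 to 0.645 in monolayers.

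**Figure D3:**
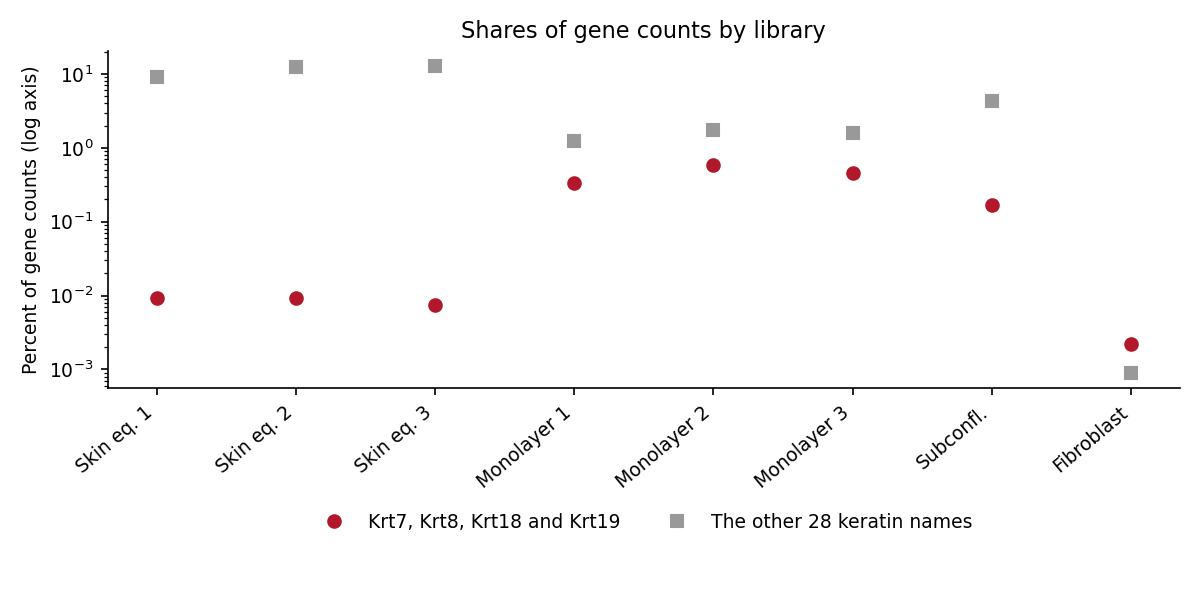
Percent of gene counts (log axis) taken by Krt7, Krt8, Krt18 and Krt19 together (circles) and by the other 28 keratin names together (squares) in each library. In skin equivalents the circles lie between 0.00734% and 0.00927% and the squares between 9.05% and 12.8%, whereas in monolayers the circles lie between 0.331% and 0.592% and the squares between 1.25% and 1.76%.

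The second comparison set confluent monolayers against the subconfluent culture, which has 1 library, so the fit of all 8 libraries took its spread from the replicated groups and there is no replicate check. None of the 4 members was called by edgeR, where 1.33% of 15019 features tested were called in either direction. An unadjusted edgeR p under 0.05 was found for 2 of 4, and its share over all features was not counted. With DESeq2 1 of 4 was called, where 1230 features were called higher and 680 lower. Krt19 had 1116, 1637 and 1505 CPM in monolayers 1 to 3, against 333 CPM in the subconfluent library (95% counting interval 327 to 339). Every monolayer was higher, but the log2 fold change of 2.09 ± 0.86 did not pass (edgeR, adjusted p = 0.199) and passed only with DESeq2 (2.18, adjusted p = 0.0342). Krt7 had 1915, 3335 and 2339.8 CPM in monolayers 1 to 3, against 1187 CPM in the subconfluent library (log2 fold change 1.09 ± 0.47, edgeR, adjusted p = 0.213). Krt18 had 2.93, 3.87 and 4.67 CPM in monolayers 1 to 3, against 2.37 CPM (88 counts) in the subconfluent library (log2 fold change 0.69 ± 0.96, edgeR, adjusted p = 0.693). Krt8 had 155 CPM in the subconfluent library, within the monolayer range of 82.2 to 235 CPM (log2 fold change 0.06 ± 0.51, edgeR, adjusted p = 0.958). Between the code 20 libraries alone, with no test, the log2 ratios of monolayer 1 to the subconfluent culture were 1.74 for Krt19, 0.69 for Krt7, 0.31 for Krt18 and -0.91 for Krt8.

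The third comparison set skin equivalents against the subconfluent culture in the same fit of 8 libraries. Here 3 of 4 members were called lower, where 13.3% of features tested were called lower. This comparison shares its skin equivalents with the first and its subconfluent library with the second. Krt7, at 4.22 to 7.11 CPM in skin equivalents, stood against 1187 CPM in the subconfluent library (log2 fold change -7.70 ± 0.44, edgeR, adjusted p = 3.11e-04). Krt19, at 0.921 to 5.20 CPM in skin equivalents, stood against 333 CPM (log2 fold change -6.90 ± 0.74, edgeR, adjusted p = 0.00166), or -7.72 without skin equivalent 2. Krt18 had 15 counts over the 3 skin equivalents, against 88 counts in the subconfluent library (ratio 0.0815, 95% counting interval 0.0438 to 0.142; log2 fold change -3.59 ± 0.92, edgeR, adjusted p = 0.0319). Krt18 did not pass without skin equivalent 3 (adjusted p = 0.0812), without monolayer 2 (0.0588) and without monolayer 3 (0.0625), and its log2 fold change was -5.25 without skin equivalent 1. Krt8 had 93.8, 86.6 and 73.1 CPM in skin equivalents, all below the 155 CPM of the subconfluent library, and was not called (log2 fold change -0.87 ± 0.49, edgeR, adjusted p = 0.228), except without monolayer 1 (adjusted p = 0.0430). Between the code 20 libraries alone, with no test, the log2 ratios of skin equivalent 1 to the subconfluent culture were -7.67 for Krt7, -7.23 for Krt19, -2.36 for Krt18 and -0.72 for Krt8.

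**Figure D4:**
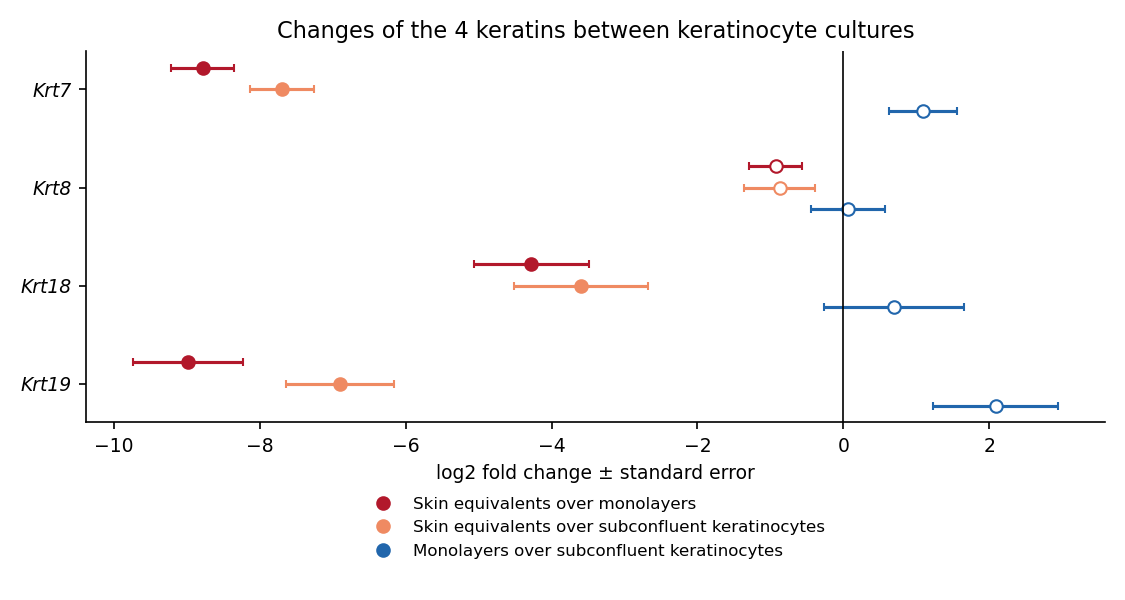
Log2 fold changes (x axis) with standard errors of Krt7, Krt8, Krt18 and Krt19 in the 3 comparisons between keratinocyte cultures, with filled points for members that passed the adjusted threshold and open points for those that did not. Krt7 and Krt19 lie between -8.99 and -6.90 in both comparisons of skin equivalents, Krt18 at -4.28 and -3.59, and Krt8 at -0.93 and -0.87 with open points.

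Fibroblasts, mesenchymal cells that lack an epithelial keratin network, gave the last comparisons, again with 1 library. In this library 2.53% of fragments were ambiguous, against 0.485% to 0.815% in the keratinocyte libraries, and 13.7% had no feature, against 17.3% to 22.2%. The part of this in the results was not tested. Against fibroblasts all 4 members were called higher in monolayers, where 23.0% of the 15019 features tested were called higher. Krt8, at 82.2 to 235 CPM in monolayers, had no count in fibroblasts (edgeR, adjusted p = 4.86e-04). The monolayer mean of 162 CPM was 1393-fold the floor of 3 counts in that library. The lower 95% counting limit of the pooled ratio was 1158. Krt18 was likewise at 0 counts in fibroblasts (edgeR, adjusted p = 0.0102). Its monolayer mean of 3.82 CPM was 33.0-fold the same floor, and the lower 95% counting limit of its pooled ratio was 27.0. Krt19 had 13 counts in fibroblasts (0.502 CPM), and the pooled ratio of monolayers to fibroblasts was 2855 with a 95% counting interval of 1669 to 5361 (edgeR, adjusted p = 0.00129).

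Krt7 was the member with the most counts in fibroblasts, 618, or 23.9 CPM (95% counting interval 22.0 to 25.8). Monolayers were higher, with a log2 fold change of 6.73 ± 0.66 (edgeR, adjusted p = 6.11e-04). Relative to monolayers, keratins of keratinocytes were present in the 1 fibroblast library in unequal proportions. Against another keratinocyte culture the proportions differ, as Krt7 had 1187 CPM in the subconfluent library and a mean of 5.72 CPM in skin equivalents. The members and the basal keratinocyte names were expressed as percentages of their monolayer means. Krt7 stood at 0.944%, Krt14L1 at 0.280% (117 counts), Krt14L2 at 0.0555% (17 counts) and Krt19 at 0.0354% (13 counts) in fibroblasts. Krt5L1 at 0.00570% (3 counts) and Krt15 at 0.00185% (1 count) were at or under the floor. Krt8, Krt18, Krt5L2 and Krt5L3 had 0 counts. Keratins outside these names could stand higher by this measure, as Krt9L3 had 2.28 CPM in fibroblasts and a mean of 6.99 CPM in monolayers.

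Between skin equivalents and fibroblasts the members went different ways. Of the 4, 1 was called lower and 1 higher, where 21.3% and 21.6% of features tested were called lower and higher. Krt7 had 5.82, 7.11 and 4.22 CPM in skin equivalents 1 to 3, all below the 23.9 CPM of the fibroblast library (log2 fold change -2.06 ± 0.41, edgeR, adjusted p = 0.00714). Its log2 fold change ranged from -2.25 to -1.88 over single libraries left out, and it was called in each case. Krt8 ranged from 73.1 to 93.8 CPM in skin equivalents, against 0 counts in fibroblasts (edgeR, adjusted p = 5.21e-04). Its mean of 84.5 CPM was 729-fold the floor of the fibroblast library, and the lower 95% counting limit of the pooled ratio was 593. Krt19 had 0.921 to 5.20 CPM in skin equivalents and 0.502 CPM in fibroblasts (log2 fold change 2.46 ± 0.99, edgeR, adjusted p = 0.0804), and passed with DESeq2 (2.30, adjusted p = 0.0212) and in edgeR once skin equivalent 3 was left out (2.87, adjusted p = 0.0281). Krt18 was under the floor in skin equivalents 2 and 3 and had 0 counts in fibroblasts, so no fold is given, and its adjusted p was 0.115 (edgeR).

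In order of level across groups, Krt7 and Krt19 were highest in monolayers, then in the subconfluent culture. For Krt7 fibroblasts came next and skin equivalents last, and for Krt19 skin equivalents came before fibroblasts. Krt18 followed the order of Krt19, with skin equivalents 2 and 3 and fibroblasts at or under the floor. For Krt8 the monolayers, the subconfluent culture and the skin equivalents did not differ beyond the test's threshold, and fibroblasts were at 0 counts. Neighbours in this order that were not called were monolayers and subconfluent keratinocytes for all 4 members, skin equivalents and the subconfluent culture for Krt8, and skin equivalents and fibroblasts for Krt18 and Krt19. Subconfluent keratinocytes and fibroblasts, neighbours for Krt7, were not tested against each other.

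The patterns over libraries were compared by Pearson's r of log2(CPM + 0.5) over the 8 libraries, as a description of which features resembled each other. The libraries fall into groups that set much of each r. Of the 143 features with a deposited name 32 are keratins, so a keratin as nearest name partly reflects which genes were named. Over 97 other named features with a mean of at least 1 CPM, the pattern most like that of Krt7 was that of Krt19 (r = 0.963), followed by Krt18 (0.949) and Krt5L3 (0.861), a name formed on KRT5. For Krt19 the order was Krt18 (0.973), Krt7 (0.963) and Krt5L3 (0.927), and for Krt18 it was Krt19 (0.973), Krt7 (0.949) and Krt5L3 (0.873). Krt8 had none of the other members among its 3 nearest names, which were Krt14L2 (0.977), Krt15 (0.974) and Krt23 (0.954), and its r with Krt7 was 0.372. In the 7 keratinocyte libraries, with fibroblasts left out, the 3 names nearest to Krt8 were instead Krt18 (0.749), Krt7 (0.728) and Krt19 (0.713), so 0 of its 3 were shared. For Krt7, Krt18 and Krt19, 2 of 3 were shared, with Krt80 taking the place of Krt5L3 (r of 0.979, 0.956 and 0.987 with Krt7, Krt18 and Krt19 in the 7 libraries). In the 6 libraries of the replicated groups the name nearest to Krt8 was Krt78L1 (0.935), ahead of Krt18 (0.736) and Krt7 (0.705). Of 12210 features without a name, 370 had an r of at least 0.95 with Krt7 over the 8 libraries, 262 with Krt19, 216 with Krt8 and 213 with Krt18. Without the fibroblast library these numbers were 876 with Krt7, 805 with Krt19, 21 with Krt8 and 611 with Krt18, of 11883 features. With the subconfluent library also left out they were 1421, 1342, 59 and 1094, of 11871, so they depend on which libraries are included.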

How the data were processed

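RNA was isolated with Trizol, and poly(A)-selected, strand-preserving libraries were sequenced in pairs, per the labels' protocols. The authors deposited raw counts, 1 whole number per feature and library without normalisation, for 24902 features. A further 4 rows, of fragments with no gene (28.7% to 35.5%), entered neither library sizes nor tests. Tools named, without roles, in the submitters' processing notes are STAR 2.6.1a, bcl2fastq 2.19.1.403, DESeq2 1.22.2 and RSEM. Build, annotation and strand setting: not given in the sources used here. Neither coordinates nor sequences are therefore printed. RefSeq names come from a table of GRCg7b, which matched 3 members by symbol and 1 by a synonym and holds 0 Ensembl identifiers.

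Comparisons were tested in edgeR 4.0.16 (R 4.3.3) by robust quasi-likelihood fits after TMM scaling and filterByExpr, and p-values were adjusted (Benjamini-Hochberg, 0.05) across every feature tested. Skin equivalents and monolayers were fitted with those 6 libraries, the other comparisons with all 8, where a lone library is assumed to vary like the replicated groups. Standard errors are the log2 fold change divided by the root of F. Exact permutation tests used SciPy 1.17.1, and counting intervals are exact (Poisson for CPM, Clopper-Pearson for ratios) at 95%. Since reads carry no molecular identifiers, intervals and floors cover counting error only. The edgeR step was also run on simulated data with the same dispersion for every feature, which checks the code and not the calls made here. Alternatives were DESeq2 1.42.0, limma-voom (limma 3.58.1), other scalings and filters, single libraries left out, the replicate number as a block and the title mark wo.

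The members and lists were chosen with earlier results of these data known. Named features are the 4 members, the 3 named features most like each, the other keratin names by type, read from the number in the name, with the 2 highest in skin equivalents and in monolayers of each type, and matched names of fixed lists. Krt80, the falls of Krt84L and Krt5L3, the code 20 ratios and the keratins set beside Krt7 in fibroblasts were picked after values were seen. Replicates differed by far more than sampling noise, for which the chi-square per degree of freedom of a pair is 1, but not evenly. It was 23.4 between monolayers 2 and 3, and 255 and 238 between monolayer 1 and each of these. Between skin equivalents it was 146 to 240.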

Additional observations from a re-analysis of the deposited data

How the results depend on the processing

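The calls of Krt7, Krt18 and Krt19 as lower in skin equivalents than in monolayers held under all 16 alternatives, with log2 fold changes of -9.06 to -8.54, -6.20 to -3.80 and -9.81 to -8.56. Krt8 was negative under all 16 and was called lower in 4 of them, with total counts (-1.22), with DESeq2 (-1.04), among the wo libraries (-1.43) and without monolayer 1, and ranged from -1.36 to -0.57 over single libraries left out. With the replicate block the log2 fold changes were -8.78 (Krt7), -0.82 (Krt8), -4.61 (Krt18) and -9.24 (Krt19), which changed no call of a member, and 3097 features were called higher and 2894 lower. Deviations from the group mean correlated at -0.0762, -0.155 and 0.158 between libraries with the same number, and at -0.208 to 0.215 between those with different numbers. The numbers were not taken to pair libraries, but with 3 libraries per group this check cannot exclude pairing. Libraries with the same number also share title codes, whose meaning the labels do not give. Total counts gave 2517 features higher and 3918 lower in skin equivalents over monolayers, where TMM gave 3427 and 3122. In monolayers over fibroblasts they gave 4309 and 2641 against 3458 and 3228.

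For monolayers over subconfluent keratinocytes, Krt8 turned negative with limma-voom (-0.071), in the code 20 libraries (-0.91) and without monolayer 2, with a range of -0.22 to 0.49 over single libraries left out. TMM gave 109 features higher and 91 lower there. Total counts gave 97 and 34, DESeq2 size factors 83 and 39, the DESeq2 test 1230 and 680 (with 1 member higher), limma-voom 198 and 150, the stricter filter of 50 counts in 3 libraries 200 and 203, and single libraries left out 0 to 413 and 0 to 270. For skin equivalents over subconfluent keratinocytes, 1374 features were higher and 2000 lower, with 2282 higher by DESeq2 and 787 to 2071 higher and 1247 to 2623 lower over single libraries left out. For skin equivalents over fibroblasts, 1 member was higher, where 3242 features were. It was 2 members by DESeq2 and 1 to 2 over single libraries left out. Over all 12 alternatives, 2320 to 3795 features were higher. The Krt7 to Krt19 ratio differed by -0.039 between skin equivalents and monolayers with a pseudocount of 2, against 0.31 with 0.5 and 0.48 with 0.1, and that of Krt8 to Krt18 by 0.60, 1.86 and 3.19 with 2, 0.5 and 0.1. The share of the 4 members in all fragments was 0.00562% in skin equivalents and 0.321% in monolayers. The cause of these shifts was not tested. Krt18 had 15 counts over 3 skin equivalents, which limits the precision of its fold changes.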
